A study of Homo sapiens with 9 samples.

Results

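The transcripts described here were protein-coding transcripts of 10 kb or longer that were measurable in fractionated HEK293 cells, a human embryonic kidney line. They were selected on 3 properties, namely an annotated type of protein-coding, a deposited length of at least 10000 bases, and at least 10 estimated reads in at least 3 of the 9 samples. Of 215170 transcripts in each file, 891 were 10 kb or longer and 631 of those were protein-coding in the annotation used here. The limit on reads kept 463 of the 631 (73.4%), which belong to 398 genes, and 47 of the 168 that were left out had no read in any sample. Because reads in these samples chose the members, a transcript could enter through the fraction in which it was high. Of the 463, 309 had 10 or more reads in every sample, 37 reached 10 reads in no cytoplasmic sample and 0 failed to reach 10 reads in at least 1 nuclear sample. Counts and medians over the members are therefore given as a description and support nothing by themselves.

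The study asked how the complex that deposits N6-methyladenosine (m6A) on mRNA bears on mRNA export, and the fractions were compared for that purpose. Control cells received a control siRNA, and RNAi cells received siRNAs against WTAP and against Virilizer (KIAA1429, VIRMA in current nomenclature) together. Polyadenylated RNA was sequenced from 3 control nuclear, 1 control cytoplasmic, 3 RNAi nuclear and 2 RNAi cytoplasmic samples, and nothing in the labels says whether replicates came from separate cultures, so the p-values measure only the spread between these samples. Every comparison that uses the control cytoplasm rests on 1 library, whose spread was taken from the other groups. Samples held 11627403 to 19036141 estimated reads, so that 3 reads correspond to 0.158 to 0.258 CPM (counts per 1000000 reads).

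WTAP stood at 9.10 to 15.9 TPM (transcripts per 1000000, a level corrected for length and depth) in the 4 control samples and at 2.59 to 6.70 TPM in the 5 RNAi samples. VIRMA stood at 3.43 to 7.02 TPM in control samples and at 0.993 to 3.8 TPM after RNAi, and these ranges overlapped. Of the HEK293 marker genes, PAX2 lay between 2.78 and 6.14 TPM, and CD3E, a T cell marker, was listed at 0 in all 9 samples. The nuclear RNA MALAT1 lay between 11.2 and 20.5 TPM in the nuclear samples, at 0.622 and 0.461 TPM in the RNAi cytoplasms and at 1.51 TPM in the control cytoplasm. NEAT1, also nuclear, stood at 1.22 and 1.58 TPM in the RNAi cytoplasms and at 2.98 TPM in the control cytoplasm. The single control cytoplasm thus held more of both nuclear RNAs than either RNAi cytoplasm, and the part of this in the comparisons of long transcripts was not tested. The mitochondrial transcript MT-CO1 was higher in every nuclear sample (30090 to 57960 TPM) than in any cytoplasmic sample (13690 to 19160 TPM), against its place in the list of cytoplasmic RNAs. MT-ND4, from the same list, overlapped between the fractions. GAPDH was higher in every cytoplasmic sample (4299 to 4992 TPM) than in any nuclear sample (2411 to 3425 TPM). RPLP0 was so too, at 1258 to 1395 TPM against 1006 to 1196 TPM.

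An mRNA reaches the cytoplasm after capping, splicing and polyadenylation, when the TREX complex loads the export receptor NXF1 onto it. The m6A methyltransferase holds the catalytic subunit METTL3 with METTL14, and WTAP and Virilizer are adaptor subunits that place it on nuclear RNA. Methylated sites are known to be common in long internal exons and around stop codons, within a short consensus whose most used form is GGACT in the DNA alphabet. Very long mRNAs encode molecular motors, scaffolds, receptors, chromatin regulators and giant kinases, and many others are long because of an extended 3′ UTR.

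In the annotation, 404 of the 463 long transcripts had a length within 5% of the deposited one, and structure is given for these. Their median was 23 exons, against 8 in 20942 shorter protein-coding transcripts tested. The longest internal exon had a median of 602.5 bases against 202.0 bases, and the final exon one of 6502 bases against 793.0 bases. GGACT, read on the transcript strand only, occurred at least once in all 404 long transcripts and in 84.4% of the shorter ones. The median was 10 occurrences per long transcript and 2.0 per shorter one, but per 1000 bases the long transcripts held 0.808 and the shorter ones 0.988. GC content was lower in the long transcripts, with a median of 43.9% against 52.5%.

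To show the sequence around such a match, the following windows of 29 bases give the first GGACT that lies at least 12 bases from either end of the longest internal exon, for 6 of the members described below whose longest internal exon is 1000 bases or longer, chosen after their values were seen. All lie in coding sequence and are read 5′ to 3′ on the transcript strand of GRCh37 (hg19), with GGACT in capitals. A match is a description of the sequence and not a mapped methylation site.
SPEN, exon 11 of 15, chr1:16254667-16254695, plus strand: ggattccaggcgGGACTatccagctcgag
MKI67, exon 12 of 14, chr10:129904323-129904351, minus strand: acacatttgtggGGACTccagtggagaaa
BOD1L1, exon 10 of 26, chr4:13605874-13605902, minus strand: taagtgtgatatGGACTccactaacatgg
RIF1, exon 29 of 35, chr2:152319831-152319859, plus strand: agcaaagagaagGGACTttttcaaaatct
CENPF, exon 12 of 20, chr1:214814599-214814627, plus strand: cccaagagaatgGGACTcttaaggaaatt
NUFIP2, exon 2 of 4, chr17:27614227-27614255, minus strand: accttaaaacagGGACTtgaaactttcaa
The exon of SPEN spans 8176 bases and holds 7 matches, that of MKI67 spans 6845 bases and holds 2, and that of BOD1L1 spans 6139 bases and holds 3. NUFIP2 has the densest exon of these, with 6 matches in 1725 bases. The longest internal exon of TTC3, of 1066 bases, held 0.

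Long transcripts made up a larger share of the nuclear than of the cytoplasmic libraries, and the gap was wider after RNAi. They took 1.66%, 1.38% and 1.52% of the estimated reads in the 3 control nuclear samples and 1.13% in the control cytoplasm. After RNAi they took 1.60%, 1.69% and 1.64% in the nuclear samples and 0.916% and 0.750% in the cytoplasmic ones. No cytoplasmic sample reached any nuclear sample. The mean share was 1.97 times as high in the RNAi nucleus (1.65% ± 0.0447, SD, n = 3) as in the RNAi cytoplasm (0.833% ± 0.117, SD, n = 2), and 1.34 times as high in the control nucleus (1.52% ± 0.141, SD, n = 3) as in the 1 control cytoplasm. In TPM the members held 0.125% to 0.157% of the nuclear totals, 0.10% of the control cytoplasm, and 0.0802% and 0.0631% of the RNAi cytoplasms. These are shares of a library. A lower share of long transcripts and a higher amount of other RNA in a fraction cannot be told apart in these data. With each sample giving a single share, no test was run on it.

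**Figure D1:**
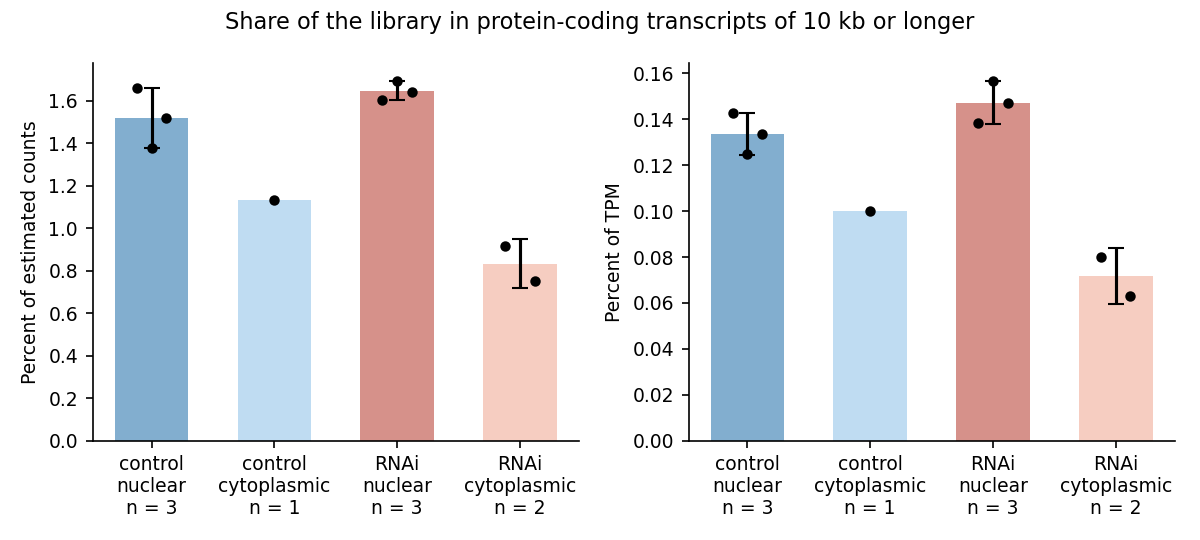
Share of each library in protein-coding transcripts of 10 kb or longer, as a percent of the estimated counts (left) and of TPM (right), in the 4 groups. Points are samples, bars are group means and whiskers are the SD, with none for the single control cytoplasm. The RNAi cytoplasms are lowest at 0.916% and 0.750% of the counts.

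The median level of a long transcript gave the same order. It was 0.945, 0.823 and 0.810 TPM in the control nuclear samples and 0.732 TPM in the control cytoplasm. It was 0.989, 1.14 and 1.05 TPM in the RNAi nuclear samples and 0.369 and 0.273 TPM in the RNAi cytoplasms. Shorter protein-coding transcripts had medians between 1.76 and 2.46 TPM over the 9 samples. Of the 463 long transcripts, 30 and 46 had no estimated read in the RNAi cytoplasms, 13 had none in the control cytoplasm, and 2 to 12 had none in the nuclear samples. Over the 309 transcripts with 10 or more reads in every sample, the medians were 1.49 to 1.96 TPM in the nuclear samples, 1.47 TPM in the control cytoplasm, and 1.02 and 0.711 TPM in the RNAi cytoplasms.

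Each of 5 comparisons was fitted over all 49963 transcripts with enough reads, by edgeR's quasi-likelihood F test with Benjamini-Hochberg adjustment, and a transcript passed where its log2 fold change lay beyond 0.5 and its adjusted p was under 0.1. In RNAi cells 244 of the 463 long transcripts were higher in the nucleus and 7 were higher in the cytoplasm. Over all transcripts tested the same rule called 28.1% and 14.8%, against 52.7% and 1.51% of the long ones. In control cells 100 were higher in the nucleus and 32 higher in the cytoplasm, or 21.6% and 6.91%, beside 20.6% and 11.0% of all transcripts tested, so that in control cells the nuclear share lay near the background. The median log2 ratio of nucleus to cytoplasm was 1.11 (quartiles 0.32 and 2.18) after RNAi, where that of all transcripts tested was 0.18. In control cells it was 0.27 (quartiles -0.39 and 1.35), where that of all transcripts tested was 0.15. The control median was 0.13 without control nuclear replicate 1 and 0.40 without control nuclear replicate 2, and it was 0.09 on gene sums. Of the long transcripts, 402 (86.8%) had a ratio above 1 after RNAi, beside 54.4% of all transcripts tested. In control cells 281 (60.7%) had one, beside 53.8% of all transcripts tested. Of the members, 27 had 0 rounded reads in the RNAi cytoplasms and 29 had 0 in the control cytoplasm. Setting them to a bound from 3 reads over the group left both medians as they were. Such transcripts mostly lie on the nuclear side with or without the bound, so these medians could hardly move. With counts summed per gene, where 398 genes hold a long transcript, 237 were higher in the RNAi nucleus and 19 lower, beside 32.8% and 25.0% of all 16107 genes. In control cells 121 genes were higher in the nucleus and 81 lower, beside 28.1% and 22.7%.

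Across protein-coding transcripts the median ratio of nucleus to cytoplasm was highest in the longest class. In RNAi cells the median log2 ratio of nucleus to cytoplasm was -0.43 below 1000 bases, -0.45 from 1000 to 2500, -0.15 from 2500 to 5000, 0.29 from 5000 to 10000 and 1.11 at 10000 or more. In control cells these medians were -0.44, -0.29, -0.14, -0.03 and 0.27. Within the long transcripts the 70 of 15000 bases or more had medians of 1.95 in RNAi cells and 0.75 in control cells, and the 157 of 10000 to 11000 bases had medians of 1.02 and 0.17. The classes between them did not follow that order, with 1.15 and 0.09 in the 104 of 11000 to 12000 bases and 0.94 and 0.22 in the 132 of 12000 to 15000 bases. Length itself ordered the 404 transcripts with matching structure only weakly, with Spearman's rho of 0.12 for the ratio in RNAi cells and 0.05 in control cells. These correlations are descriptions over transcripts that share the same 9 libraries.

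**Figure D2:**
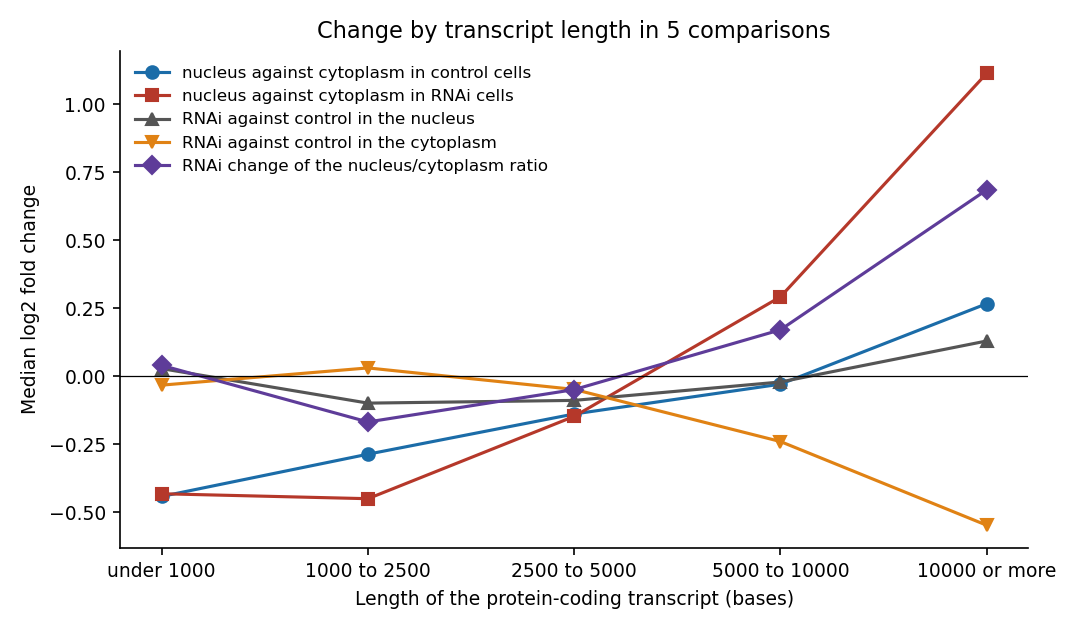
Median log2 fold change (vertical axis) of protein-coding transcripts in 5 classes of length in bases (horizontal axis), with a line for each of the 5 comparisons. The nucleus/cytoplasm ratio in RNAi cells is -0.43 in the shortest class, -0.45 in the next and 1.11 in the longest, and the RNAi change in the cytoplasm falls to -0.55.

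Several of the most abundant members were higher in the nucleus in both cell populations. SPEN (ENST00000375759, 12232 bases, chr1:16174202-16266951), a transcriptional corepressor, had the highest mean level. It stood at 139.7, 129.1 and 135.3 TPM in the control nuclei, 70.4 TPM in the control cytoplasm, 140.1, 168.6 and 148.0 TPM in the RNAi nuclei, and 34.0 and 28.9 TPM in the RNAi cytoplasms. Every nuclear sample was above every cytoplasmic one, and both RNAi cytoplasms were under the control cytoplasm. Its log2 ratio of nucleus to cytoplasm was 0.86 ± 0.17 (SE) in control cells (edgeR adjusted p = 0.0148) and 1.93 ± 0.14 after RNAi (edgeR adjusted p = 0.00025). It was lower in the RNAi than in the control cytoplasm by a log2 change of -0.98 ± 0.17 (edgeR adjusted p = 0.0577), and the change of the ratio, 1.07 ± 0.20, missed the threshold (edgeR adjusted p = 0.104). Its gene, in which this transcript holds 99.5% of the reads, passed with a change of 1.00 (edgeR adjusted p = 0.0117).

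DYNC1H1 (ENST00000360184, 14333 bases), the heavy chain of cytoplasmic dynein that carries cargo along microtubules, had a smaller nuclear excess after RNAi by its fitted values. Its level was 46.9, 51.7 and 45.3 TPM in the control nuclei and 11.1 TPM in the control cytoplasm, and 31.4, 42.5 and 37.2 TPM in the RNAi nuclei and 13.8 and 10.8 TPM in the RNAi cytoplasms. The nucleus was higher in control cells (log2 ratio 2.02 ± 0.17, edgeR adjusted p = 0.00134) and in RNAi cells (1.24 ± 0.12, edgeR adjusted p = 0.000626). The change of its ratio after RNAi was -0.78 ± 0.19 and did not pass (edgeR adjusted p = 0.156), while the gene sum did (-0.85, edgeR adjusted p = 0.0116). NOTCH2, a receptor of the Notch family, and CELSR2, an atypical cadherin, were also higher in both nuclei. NOTCH2 had log2 ratios of 1.16 ± 0.36 in control cells and 1.23 ± 0.28 after RNAi, and CELSR2 of 1.24 ± 0.35 and 1.11 ± 0.26, all past the test.

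Not all abundant long transcripts lay on the nuclear side. CBX5, which encodes the heterochromatin protein HP1 alpha, has a final exon of 10964 of its 11528 bases and was nearly even, at 23.7 to 26.2 TPM in the control nuclei, 27.1 TPM in the control cytoplasm, 22.8 to 25.5 TPM in the RNAi nuclei, and 26.5 and 19.6 TPM in the RNAi cytoplasms. IPO9, an import receptor with a final exon of 8348 bases, lay between 17.2 and 22.8 TPM in all 9 samples, with the groups overlapping. HTT, the Huntington disease protein, was at 16.0 to 17.4 TPM in the control nuclei and 16.9 TPM in the control cytoplasm, and at 16.6, 21.6 and 19.5 TPM in the RNAi nuclei against 23.1 and 20.2 TPM in the RNAi cytoplasms. Its log2 ratio after RNAi was -0.52 ± 0.10 (edgeR adjusted p = 0.00564), one of the 7 calls towards the cytoplasm. CBL, a ubiquitin ligase that acts on receptor tyrosine kinases, has a long transcript with 100% of its gene's reads. It stood at 8.0 to 10.1 TPM in the control nuclei and 18.0 TPM in the control cytoplasm. After RNAi it stood at 9.9 to 11.9 TPM in the nuclei and 18.2 and 11.8 TPM in the cytoplasms, and these ranges overlapped. It was lower in the nucleus by a log2 ratio of -1.05 ± 0.25 in control cells (edgeR adjusted p = 0.0267) and of -0.81 ± 0.21 after RNAi (edgeR adjusted p = 0.0214). WNK1, TTL, FTO and DR1 were the other members named towards the cytoplasm after RNAi, with log2 ratios of -1.40, -0.73, -0.69 and -0.60. KMT2D and HUWE1, a histone methyltransferase and a ubiquitin ligase among the 10 highest levels, passed in neither population.

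**Figure D3:**
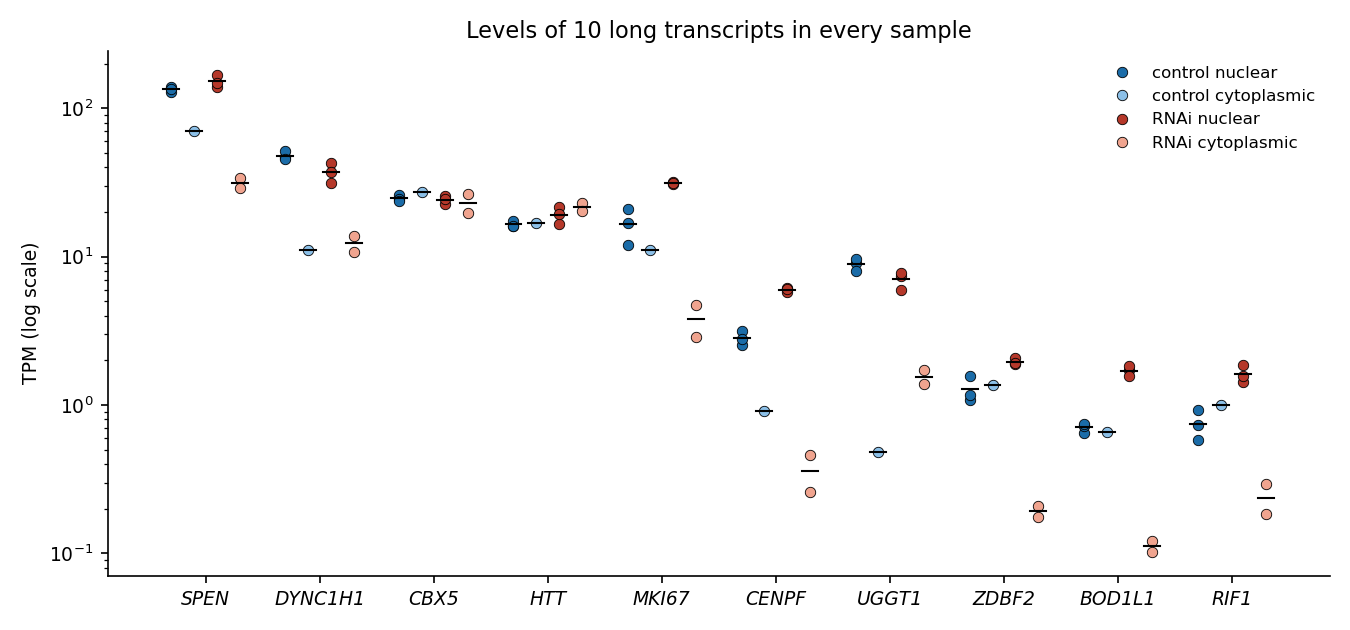
Levels of 10 long transcripts in TPM on a log axis, with a point for each sample and a bar at each group mean. SPEN is high in every nucleus, CBX5 and HTT are close to even between fractions, and ZDBF2, BOD1L1 and RIF1 are lowest in the RNAi cytoplasms.

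Within the fractions, RNAi was followed by calls in the cytoplasm and not in the nucleus. In the nucleus, the only comparison of siRNAs with replicates on both sides, edgeR called 0 long transcripts higher and 0 lower, beside 0.0% of all transcripts tested in either direction. At an unadjusted p under 0.05 there were 55 members, 45 higher and 10 lower, which is 11.9% against 9.90% of all transcripts. DESeq2's Wald test called 19 higher and 2 lower, beside 2.44% and 2.27% of the transcripts it tested. With counts summed per gene, edgeR called 34 of the 398 genes higher and 3 lower, beside 2.48% and 2.43%. The median log2 change in the nucleus was 0.13, where that of all transcripts tested was 0.00. It was 0.27 without control nuclear replicate 1 and 0.04 without control nuclear replicate 2.

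In the cytoplasm 39 long transcripts fell after RNAi and 3 rose, beside 1.61% and 1.1% of all transcripts tested, with a median log2 change of -0.55 (quartiles -1.29 and 0.04) against -0.04 over all transcripts. With the 27 members that could be given only as a bound set there and 17 members with no more than 3 reads in either cytoplasm left out, the median was -0.60. Per gene, 133 of the 398 were lower and 15 higher, beside 14.3% and 10.4%. The transcript count of 39 moved when a library was left out. Nuclear samples enter this comparison only through the shared spread and the scaling, yet leaving one out moved the count. It was 9 without control nuclear replicate 3, 10 without RNAi nuclear replicate 1 or 2, and 0 without RNAi nuclear replicate 3. Each of these fits had fewer samples to estimate the spread. The range over all samples left out is given below, and the count could not be computed without the control cytoplasm.

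The study's own question was put by the ratio of ratios, in which the nucleus/cytoplasm ratio after RNAi is divided by that of control cells. By this test 19 long transcripts shifted towards the nucleus and 2 towards the cytoplasm, beside 0.632% and 0.386% of all transcripts tested. The median log2 change of the ratio was 0.68 (quartiles -0.03 and 1.52) against 0.03 over all transcripts, or 0.72 with members at 0 set to their bounds. Summed per gene, which was the unit of the study's analysis, 141 of the 398 genes passed towards the nucleus and 10 towards the cytoplasm, beside 10.4% and 7.92% of all genes. The 19 transcripts became 4 without control nuclear replicate 1, 8 without control nuclear replicate 2, 0 without control nuclear replicate 3, 1 without RNAi nuclear replicate 2, and 0 without RNAi nuclear replicate 1 or 3, each in a fit with fewer samples.

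**Figure D4:**
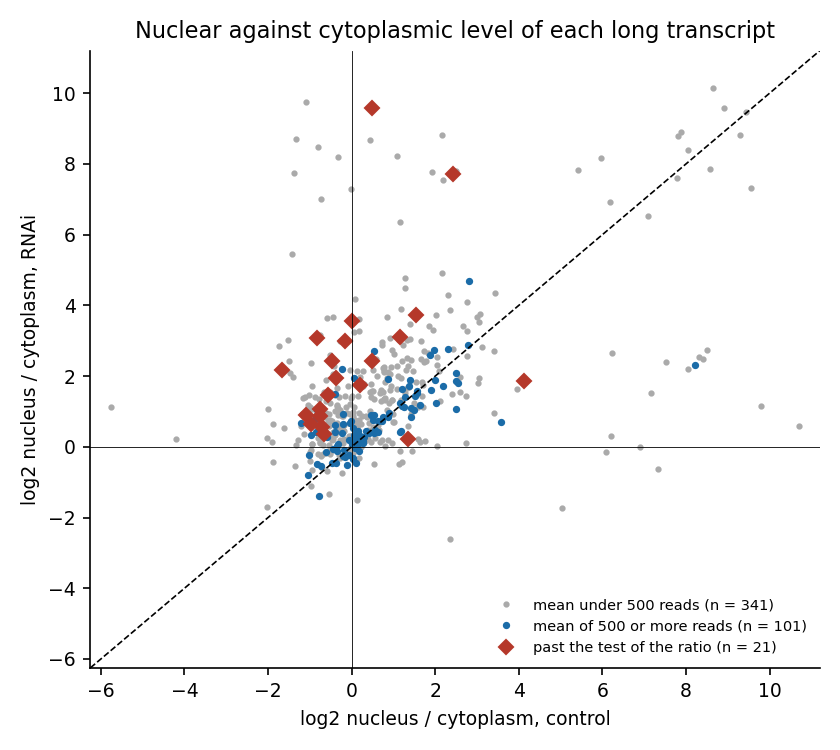
Log2 ratio of nucleus to cytoplasm of each long transcript in control cells (horizontal) and after RNAi (vertical), with the dashed line at equality. The 21 transcripts past the test of the ratio are diamonds, and 19 of them lie above the line; points far out on either axis have no or almost no reads in a cytoplasmic group.

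BOD1L1, which protects stalled replication forks, had the smallest adjusted p of the members in this test. Its transcript ENST00000040738 (10565 bases, chr4:13570362-13629349) stood at 0.652, 0.722 and 0.751 TPM in the control nuclei and 0.662 TPM in the control cytoplasm. After RNAi it stood at 1.72, 1.82 and 1.57 TPM in the nuclei and 0.121 and 0.103 TPM in the cytoplasms. Control fractions overlapped, while after RNAi the nuclear samples were higher, and the cytoplasmic ones lower, than every control sample. The log2 change of its ratio was 3.53 ± 0.29 (edgeR adjusted p = 0.0542). Its change in the nucleus, 1.19 ± 0.16, did not pass for the transcript (edgeR adjusted p = 0.137) and passed for the gene (1.04, edgeR adjusted p = 0.00973).

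RIF1, a factor of replication timing and DNA repair choice, gave a similar order after RNAi. Its 15003-base transcript was at 0.922, 0.584 and 0.738 TPM in the control nuclei and 0.995 TPM in the control cytoplasm. It was at 1.43, 1.87 and 1.56 TPM in the RNAi nuclei and 0.293 and 0.183 TPM in the RNAi cytoplasms. In control cells the single cytoplasm was above every nucleus, but the log2 ratio of nucleus to cytoplasm, -0.47 ± 0.37, did not pass (edgeR adjusted p = 0.404). The log2 change of the ratio was 2.88 ± 0.48 (edgeR adjusted p = 0.0839). ZDBF2, a paternally expressed imprinted gene with a final exon of 9711 bases, went from 1.58, 1.08 and 1.18 TPM in the control nuclei and 1.37 TPM in the control cytoplasm to 2.07, 1.88 and 1.93 TPM in the RNAi nuclei and 0.209 and 0.176 TPM in the RNAi cytoplasms. The log2 change of its ratio was 3.16 ± 0.43 (edgeR adjusted p = 0.066).

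CENPF, a kinetochore protein made before mitosis, was already nuclear in control cells. It stood at 2.53, 3.15 and 2.78 TPM in the control nuclei, 0.908 TPM in the control cytoplasm, 6.17, 5.80 and 6.02 TPM in the RNAi nuclei, and 0.460 and 0.259 TPM in the RNAi cytoplasms. None of the 4 groups overlapped another, and the log2 ratio was 1.54 ± 0.26 in control cells and 3.72 ± 0.22 after RNAi, a change of 2.17 ± 0.30 (edgeR adjusted p = 0.066). MKI67, the proliferation antigen Ki-67, had the same order of means, with 12.1 to 21.0 TPM in the control nuclei, 11.0 TPM in the control cytoplasm, 30.7 to 31.7 TPM in the RNAi nuclei, and 4.73 and 2.89 TPM in the RNAi cytoplasms. The change of its log2 ratio, 2.16 ± 0.50, did not pass (edgeR adjusted p = 0.140), and that of the gene sum did (2.00, edgeR adjusted p = 0.0166).

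Among the strongest changes were minor isoforms whose values depend on how reads shared between isoforms were divided. The TTC3 transcript ENST00000399017 carried 10.2% of its gene's reads and had 58 to 112 reads in each control nucleus, 65 in the control cytoplasm, 80 to 108 in each RNAi nucleus and 0 in both RNAi cytoplasms. Against 3 reads over the group it was at least 31.0-fold lower in the RNAi than in the control cytoplasm and at least 55.5-fold higher in the RNAi nucleus than in the RNAi cytoplasm. For the whole TTC3 gene, a ubiquitin ligase, the log2 change of the ratio was 1.77 (edgeR adjusted p = 0.00442). The DST transcript ENST00000244364, an isoform of the cytolinker dystonin with 17.4% of the gene's reads, had 430 reads over the RNAi nuclei and 1 over the RNAi cytoplasms, a ratio of 248.0 with a 95% counting interval of 44.3 to 9830. Such intervals cover counting error only. The whole gene changed its ratio by 2.42 on the log2 scale (edgeR adjusted p = 0.00822). Isoforms of TENM1, BLTP1 and PLEC had 0 rounded reads in the control and the RNAi cytoplasms. They were at least 84.5-fold, 55.3-fold and 48.3-fold higher in the RNAi nucleus than in the RNAi cytoplasm. No fold is given between their cytoplasms. These 3 passed the limit on reads through nuclear samples alone, so that limit itself set them on the nuclear side. The TENM1 isoform had 0, 6.87 and 124 reads in the control nuclei, and the PLEC isoform carried 3.87% of its gene's reads.

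The 2 transcripts that shifted towards the cytoplasm were UGGT1 and NAV1. UGGT1, the glucosyltransferase that senses misfolded glycoproteins, had 9.12, 8.03 and 9.59 TPM in the control nuclei and 0.483 TPM in the control cytoplasm. After RNAi it had 7.38, 6.00 and 7.82 TPM in the nuclei and 1.72 and 1.39 TPM in the cytoplasms. The nucleus stayed higher in both populations, while the log2 nucleus/cytoplasm ratio differed by -2.29 ± 0.36 from that in control cells (edgeR adjusted p = 0.0775), but for the whole gene the difference was -0.98 (edgeR adjusted p = 0.114). NAV1, a neuron navigator, rose in the cytoplasm from 1.92 TPM to 4.61 and 3.43 TPM (log2 change 1.25 ± 0.18, edgeR adjusted p = 0.043), while the whole gene changed by 0.36 (edgeR adjusted p = 0.216). TRRAP, a scaffold of histone acetyltransferases and the other member that rose in the cytoplasm, went from 3.66 TPM to 5.23 and 5.88 TPM, and its gene changed by 0.10 (edgeR adjusted p = 0.743). For NAV1 and TRRAP the change of the long transcript was thus not seen in the sum of their genes' reads.

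The remaining 14 members past the test of the ratio all shifted towards the nucleus. They were DMXL1, BDP1, DGKH, CENPF, MKLN1, MED13, RPAP2, NSD3, BRWD3, TAOK1, PANK3, NUFIP2, HOOK3 and EIF2AK2, with log2 changes from 1.00 for EIF2AK2 to 3.92 for BDP1. EIF2AK2 encodes the antiviral kinase PKR, MED13 a subunit of the Mediator kinase module, TAOK1 a stress kinase and HOOK3 an adaptor of dynein. NUFIP2, an RNA-binding protein, illustrates the group at higher depth. It had 7.45, 6.12 and 6.46 TPM in the control nuclei, 5.49 TPM in the control cytoplasm, 8.99, 8.73 and 8.81 TPM in the RNAi nuclei, and 2.14 and 1.98 TPM in the RNAi cytoplasms. Its ratio changed by 1.55 ± 0.28 on the log2 scale (edgeR adjusted p = 0.0965), and its transcript carried 94.7% of the gene's reads. Apart from CENPF and NUFIP2 these transcripts fall outside the rule for naming and were listed after their values were seen. The fitted log2 changes of all 14 lay between -2.80 and -1.15 in the cytoplasm and between -0.25 and 1.39 in the nucleus.

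DICER1, the ribonuclease that matures microRNAs and a gene the study measured, shows how transcripts and genes can part. It held 2 members, of 10277 and 10220 bases. The first had 0.00467 TPM in RNAi cytoplasmic replicate 1 and 2.23 TPM in replicate 2, and the second had 1.82 TPM and 9.17e-07 TPM in the same samples. The reads of DICER1 were thus assigned to one isoform in one replicate and to the other isoform in the other. Neither transcript passed in any comparison, with changes of the log2 ratio of 0.66 ± 2.02 and 3.06 ± 2.65. For the gene sum the log2 change of the ratio was 1.34 (edgeR adjusted p = 0.00953), that in the cytoplasm -0.93 (edgeR adjusted p = 0.0113) and that in the nucleus 0.42 (edgeR adjusted p = 0.123). In all, 51 genes held more than 1 member, with 116 transcripts between them and at most 5 in a gene. Values of such transcripts are uncertain to the extent that reads were split between isoforms.

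Long and shorter transcripts of the same gene were set side by side. A shorter protein-coding transcript was also tested in 218 genes that hold a member, with a median length of 3448 bases. The long transcript had the higher nucleus/cytoplasm ratio in 156 of these genes after RNAi, with medians of 1.03 for the long and 0.36 for the shorter transcripts on the log2 scale. In control cells it was higher in 154 of the 218, with medians of 0.25 and -0.48. Both transcripts of a gene were measured in the same libraries and can share reads, and no test was run on these counts.

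The RNAi change of long transcripts in the cytoplasm, and that of the ratio, was more closely related in rank to GC content than to length, exon number, coding share, GGACT density or mean reads. Over the 404 transcripts with matching structure, Spearman's rho between GC content and the log2 change in the cytoplasm was 0.58, that with the change of the ratio was -0.57 and that with the ratio in control cells 0.37. The points share the same libraries, and depth differs with GC content, so these are descriptions. For GGACT per 1000 bases the corresponding rho was 0.25 in the cytoplasm and -0.22 for the ratio. The 105 members under 40% GC had a median change of -1.32 in the cytoplasm, and 22 of them fell and 0 rose. The 121 members of 40% to 45% had a median of -0.86, with 12 lower and 1 higher. Above that the change was small, with medians of -0.25 in the 78 members of 45% to 50% and 0.08 in the 100 members of 50% or more. The change of the ratio went from 1.42 in the lowest class through 0.96 and 0.25 to -0.11 in the highest. Of the members towards the nucleus by that test, 11 lay under 40% GC, 7 between 40% and 45% and 0 above. The remaining one, BRWD3, has no matching structure. Over all transcripts tested, of any GC content, 0.632% passed towards the nucleus by that test. In the cytoplasm 1.61% of them were lower and 1.1% higher. These shares were not computed by GC content, so the counts per GC class are not read as particular to long transcripts.

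In control cells the order ran the other way. The median log2 ratio of nucleus to cytoplasm was -0.35 in the members under 40% GC, 0.12 from 40% to 45%, 0.41 from 45% to 50% and 0.97 at 50% or more. After RNAi it was 1.40, 1.41, 0.65 and 0.66 in the same classes. At 50% or more both medians were thus above 0, and under 40% the median was above 0 after RNAi and below 0 in control cells. Shorter transcripts showed the same direction with GC. Between 5000 and 10000 bases the median change in the cytoplasm was -1.23 under 40% GC and 0.18 at 50% or more, and between 2500 and 5000 bases it was -0.99 and 0.26. At 50% GC or more, the change of the ratio was -0.11 in the long transcripts, -0.23 from 5000 to 10000 bases and -0.34 from 2500 to 5000. In RNAi cells the long transcripts had the highest median of the length classes within each of the 4 GC classes. At 50% or more the median log2 ratio of nucleus to cytoplasm was -0.43 in the shortest class and 0.66 in the longest, and under 40% it was -0.09 and 1.40. The mean GC content of protein-coding reads, weighted by reads, was 51.1% to 52.5% in the nuclear samples, 52.5% in the control cytoplasm, and 53.4% and 53.1% in the RNAi cytoplasms. Within the long transcripts it was 47.8% in the control cytoplasm and 49.2% to 49.8% in the other 8 samples, so that the single control cytoplasm stood apart. The part of base composition, and of that library, in the comparisons was not tested.

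**Figure D5:**
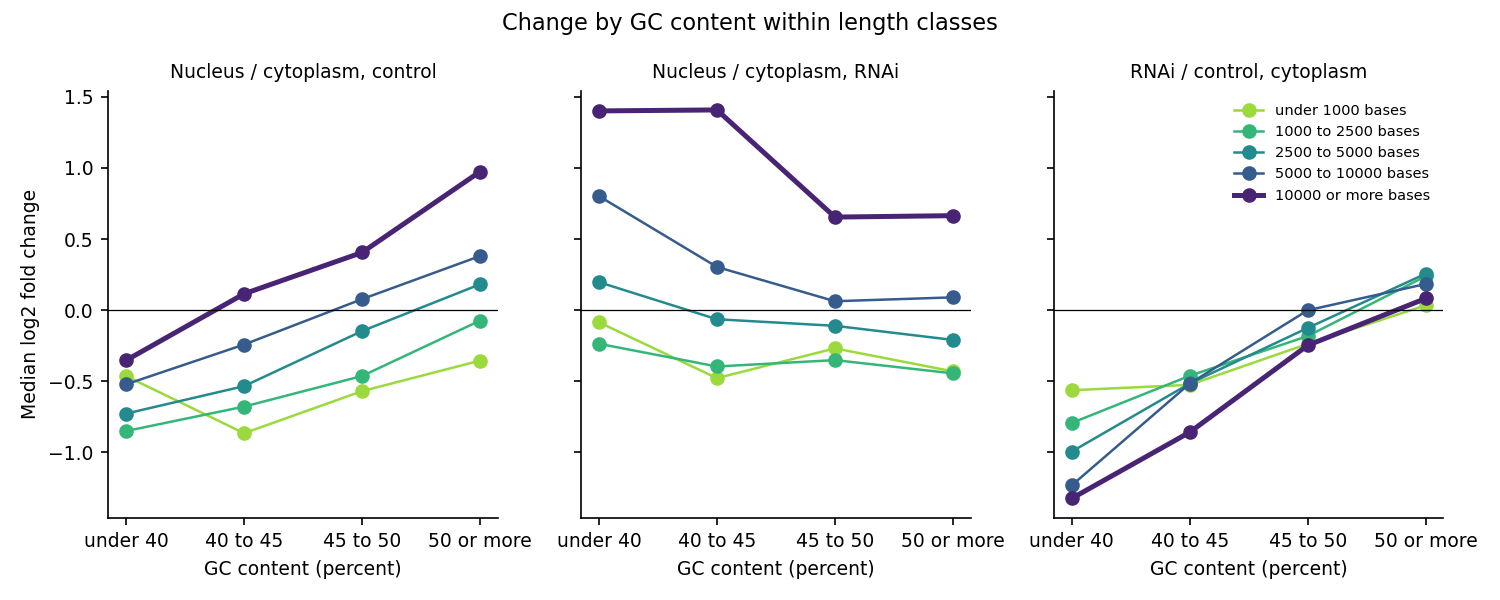
Median log2 fold change (vertical axis) by GC content in percent (horizontal axis), with a line for each class of transcript length, for nucleus over cytoplasm in control cells, the same after RNAi, and RNAi over control in the cytoplasm. In the cytoplasm all length classes rise from low to high GC, from -1.32 to 0.08 in transcripts of 10000 bases or more.

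Depth and base composition moved together. Members with a mean of 500 reads or more numbered 107 and had a median change of the ratio of 0.10, and the 121 with a mean under 50 reads had one of 1.04. Within members under 45% GC, however, the medians were 1.07 for 22 transcripts with a mean of 500 reads or more and 1.25 for 204 with fewer. At 45% GC or more they were 0.01 for 76 transcripts with a mean of 500 reads or more and 0.05 for 102 with fewer. The change of the ratio was therefore of like size at both depths within a GC class.

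Members were also split by where their length lies. In 204 members the coding sequence was 50% or more of the transcript, with a median of 41.0 exons and a longest internal exon of 1324 bases. In 200 it was less, with 13.0 exons and a final exon of 9288 bases at the median, so that these are long through their 3′ UTR. The nucleus/cytoplasm ratio was higher in the first class, with log2 medians of 1.42 against 0.86 after RNAi and 0.53 against 0.09 in control cells. The change of the ratio was close in both, at 0.72 and 0.66. The first class had a median GC content of 46.8% and the second of 41.7%. The number of GGACT per 1000 bases was 0.878 in the first and 0.760 in the second.

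Lists of genes with like functions held different shares of nuclear long transcripts. The shares count transcripts, so a gene with several members counts more than once. The 40 transcripts of the cytoskeletal list came from 25 genes, for example, and the 38 of the chromatin list from 24. The shares are read beside those for the nuclear side of all transcripts tested (28.1% after RNAi and 20.6% in control cells) and of all long transcripts (52.7% and 21.6%). Of 40 transcripts of motors, spectrins, plakins and other cytoskeletal proteins, 24 (60%) were higher in the RNAi nucleus and 0 lower, with a median log2 ratio of 2.39, and 12 (30.0%) were higher in the control nucleus and 0 lower, with a median of 1.39. AHNAK, a giant scaffold under the plasma membrane, is an example with a single dominant transcript. It had 16.9, 9.40 and 12.5 TPM in the control nuclei against 1.83 TPM in the control cytoplasm, and 10.5, 11.7 and 10.6 TPM in the RNAi nuclei against 1.37 and 0.972 TPM in the RNAi cytoplasms. Its log2 ratio was 2.77 ± 0.46 in control cells and 2.88 ± 0.35 after RNAi, and the change was 0.11 ± 0.49 (edgeR adjusted p = 0.992). Of 27 transcripts of receptors, cadherins and matrix proteins, 22 (81.5%) were higher in the RNAi nucleus and 0 lower (median log2 ratio 1.71), and 14 (51.9%) were higher and 1 lower in the control nucleus (median 1.41). LRP1, an endocytic receptor, and LAMA5, a laminin chain, passed in both populations, with log2 ratios of 2.51 ± 0.56 and 2.18 ± 0.35 in control cells and of 1.87 ± 0.41 and 1.71 ± 0.25 after RNAi. The median change of the ratio in this list was 0.28, with 0 transcripts past the test.

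The largest median changes of the ratio among the 9 lists were those of the nuclear pore and cell division, at 2.16, and of membrane trafficking, at 2.05. Of 20 transcripts of trafficking and lipid transfer proteins, 1 (5.0%) was higher and 2 were lower in the control nucleus (median -0.49), and 9 (45%) were higher and 0 lower in the RNAi nucleus (median 2.14). For the change of the ratio 1 transcript of this list passed. VPS13A, a lipid transfer protein at membrane contacts, had 0 and 23 reads in the RNAi cytoplasms and 79 in the control cytoplasm, and its change did not pass (2.81 ± 1.61, edgeR adjusted p = 0.517), while that of the gene sum did (3.01, edgeR adjusted p = 0.0112). Of 7 transcripts for the nuclear pore and cell division, 5 (71.4%) were higher and 0 lower in the RNAi nucleus (median 2.82), and 1 (14.3%) was higher and 1 lower in the control nucleus (median 0.75). RANBP2, a large nucleoporin, had a log2 ratio of -0.27 ± 0.52 in control cells and of 2.99 ± 0.48 after RNAi (edgeR adjusted p = 0.00356), and the change of 3.26 ± 0.67 did not pass (edgeR adjusted p = 0.114), while the gene sum, of which the transcript holds 98.9%, passed (3.20, edgeR adjusted p = 0.00822). The transcript lower in the control nucleus was that of CDK6, a cyclin-dependent kinase of G1 (log2 ratio -1.32 ± 0.20, edgeR adjusted p = 0.00642). It fell in the cytoplasm from 4.36 TPM to 1.56 and 1.23 TPM after RNAi (log2 change -1.46 ± 0.22, edgeR adjusted p = 0.048).

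In the other 5 lists, as in that of membrane trafficking (45%), the share called towards the nucleus after RNAi lay below that of all long transcripts (52.7%). Of 38 transcripts of chromatin regulators, 13 (34.2%) were higher in the RNAi nucleus and 0 lower (median 0.91), and 6 (15.8%) were higher and 3 lower in the control nucleus (median 0.07). NSD1, EP400 and CREBBP, which modify histones, had log2 ratios after RNAi of 0.23, 0.18 and 0.40. Of 17 transcripts of ubiquitin ligases, deubiquitinases and partners, 7 (41.2%) were higher and 1 lower in the RNAi nucleus (median 0.44) and 2 (11.8%) were higher and 2 lower in the control nucleus (median -0.10). UBR4, a ligase of the N-degron pathway, had a log2 ratio of 0.89 ± 0.13 after RNAi. Of 13 transcripts of RNA-binding, splicing and small RNA factors, 5 (38.5%) were higher and 0 lower in the RNAi nucleus (median 0.60), and 2 (15.4%) were higher and 1 lower in the control nucleus (median 0.15). RBM33 was higher in both, with log2 ratios of 1.71 ± 0.09 and 1.36 ± 0.12, and the lower one was HELZ, an RNA helicase, with -0.98 ± 0.32 (edgeR adjusted p = 0.0688). Of 12 transcripts of kinases and regulators of growth signalling, 4 (33.3%) were lower and 0 higher in the control nucleus (median -0.88), where 11.0% of all transcripts tested were lower, and 1 was lower and 4 (33.3%) higher in the RNAi nucleus (median 0.63). NFAT5, a transcription factor of the response to osmotic stress, was lower in the control nucleus by a log2 ratio of -1.20 ± 0.35 (edgeR adjusted p = 0.0466) and had a ratio of 0.66 ± 0.30 after RNAi, which did not pass (edgeR adjusted p = 0.128). Of 7 transcripts of PIKK kinases, the family of ATM, PRKDC and SMG1, 0 passed in the RNAi nucleus against cytoplasm and 2 (28.6%) were higher in the control nucleus. SMG1, a kinase of nonsense-mediated decay, had 1.65 and 0.0873 TPM in the RNAi cytoplasms, a spread that left its change of -2.11 ± 1.11 short of the test (edgeR adjusted p = 0.437), while its gene sum passed (-1.46, edgeR adjusted p = 0.0567).

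The limits of the rule separated transcripts of like properties. The members nearest to the length limit were BCL9L at 10005, HEBP2 at 10014 and LRP6 at 10020 bases, and PPARA at 9995, TRIP11 and INPP4A at 9996 bases stayed outside. By reads, KALRN entered with 10.1 reads in the sample that decided it, and TNR stayed outside with 9.95 reads. The longest member was a transcript of titin, TTN, at 109224 bases, and the median length was 11645 bases.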

How the data were processed

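Nuclear and cytoplasmic RNA of HEK293 cells had been sequenced from Lexogen SENSE mRNA libraries on a HiSeq 2500. The authors removed 9 bases of read 1 and 6 bases of read 2 with cutadapt, merged lanes, and estimated abundances with Salmon against Ensembl version 75 transcripts of hg19, with versions of both tools not given in the sources used here. The deposited values used are Salmon's estimated counts per transcript and TPM, which the authors computed by dividing by effective length and scaling to 1000000 per sample. Replicates were not pooled.

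Transcripts were joined by identifier, without version, to the GENCODE version 44 annotation lifted to GRCh37, which covered 85.1% of the 215170 transcripts. Of the transcripts of 10 kb or longer, 197 had no match and 63 were of another type, and these are not analysed here. Structure, GC content and GGACT were taken from that annotation where its length was within 5% of the deposited length.

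Estimated counts were rounded and all 49963 transcripts with 10 or more reads in at least 3 samples were fitted with edgeR 4.0.16 in R 4.3.3 (TMM normalization, quasi-likelihood F test, 4 groups, 9 samples, 5 residual degrees of freedom, Benjamini-Hochberg adjustment over all transcripts). The thresholds were a log2 fold change beyond 0.5 and an adjusted p under 0.1. SE is the fold change divided by the square root of F. The scripts were tested on simulated data. Alternatives used DESeq2 1.42.0, limma 3.58.1 on log2(TPM + 1) and log2(TPM + 0.1), gene sums, other filters and scalings, and each sample left out. Samples of one group had correlations (r) of 0.83 to 0.89 on log2 CPM and differed by more than sampling noise, so that none was counted as a duplicate.

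The members, gene lists, classes and tests were chosen with earlier results of these data known. The rule for naming took the 10 members of highest mean TPM, up to 5 members per direction past the thresholds in each comparison with a mean of at least 50 reads and the same sign whichever sample was left out, examples of the gene lists, DICER1, and transcripts at the limits of the rule. It also took some members that are not described above. These were TMEM106B (lower in the RNAi cytoplasm), CDC42BPA and TNRC6B (higher in the control nucleus). LRBA, PHIP, VGLL3 and the WNK1 transcript ENST00000537687 (lower in the control nucleus) were left out too. Columns of length and effective length served for the rule and for 1 alternative. Depth sets the precision. With 11627403 to 19036141 reads per sample, bounds were computed from 3 reads over a group.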

Additional observations from a re-analysis of the deposited data

Results flagged for a closer look

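The results below were singled out because the effect of fraction differed between control and RNAi cells by a test of that difference itself. Of the 463 long transcripts, 19 had a higher nucleus/cytoplasm ratio after RNAi and 2 a lower one. The log2 change of the ratio was 9.10 for TTC3, 5.28 for DST, 3.53 for BOD1L1, 3.16 for ZDBF2 and 2.88 for RIF1, and it was -2.29 for UGGT1 and -1.14 for NAV1. The fitted values of TTC3 and DST come from transcripts with 0 and 1 reads over the RNAi cytoplasms and are no bounds, and the bounds and counting intervals are given with the transcripts above. All 7 values use the single control cytoplasm, in which MALAT1 stood at 1.51 TPM against 0.622 and 0.461 TPM in the RNAi cytoplasms, and the part of that difference was not tested.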

How the results depend on the processing

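Across 315 alternative values of the counts, medians and shares, 230 stayed within 1.5 times the main count or within 1 SD of the sample medians (0.22 on the log2 scale), and 85 moved, and the cause was not tested. Every one of the medians kept its sign. Among these alternatives, the share of all transcripts or genes called is given above only for gene sums and for DESeq2 in the nucleus. The other counts show how the calls among long transcripts moved, and they cannot be set against such a share. In the nucleus, where 0 and 0 long transcripts passed, DESeq2 called 19 higher and 2 lower, gene sums 34 and 3, and a filter of 10 reads in every sample 5 higher. Counts without 1 sample ranged from 0 to 0. In the cytoplasm (3 higher, 39 lower), DESeq2 gave 11 and 82, the filter in every sample 6 and 65, the replicate block 0 and 0, limma on log2(TPM + 1) 0 and 0, limma on log2(TPM + 0.1) 0 and 7, gene sums 15 and 133, an adjusted p of 0.05 1 and 12, and no filter 16 lower. Without 1 sample they ranged from 0 to 4 higher and from 0 to 56 lower. The cytoplasmic median (-0.55) was -0.80 with the replicate block and -0.17 by limma on log2(TPM + 1), and from -0.75 to -0.47 without 1 sample.

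For nucleus against cytoplasm after RNAi (244 higher, 7 lower), the lower count was 2 by library size alone, 1 with the filter in every sample, 1 by limma with either pseudocount and 19 per gene, and without 1 sample it ranged from 3 to 9, the higher count from 211 to 251 and the median from 1.08 to 1.33. The median (1.11) was 1.39 by library size alone, 0.43 by limma on log2(TPM + 1), 0.84 per gene and 0.76 over members with 10 reads in every sample, an alternative chosen after seeing the data. In control cells (100 higher, 32 lower), no filter gave 61 and 21, limma on log2(TPM + 1) 53 and 13, limma on log2(TPM + 0.1) 9 lower, the filter in every sample 18 lower, gene sums 81 lower and an adjusted p of 0.05 21 lower, with 77 to 117 higher and 22 to 50 lower without 1 sample.

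The change of the ratio (19 higher, 2 lower) gave 43 and 1 by library size alone, 89 and 8 by DESeq2, 9 and 1 with no filter, 49 higher with the filter in every sample, 0 and 0 with the replicate block, by limma on log2(TPM + 1) and at an adjusted p of 0.05, 5 and 0 by limma on log2(TPM + 0.1), 141 and 10 per gene, 38 higher with a length limit of 8000 bases, and 6 and 0 with one of 12000 bases. Without 1 sample the counts ranged from 0 to 24 and from 0 to 2. The median (0.68) was 0.91 with the replicate block, 0.28 by limma on log2(TPM + 1), and from 0.52 to 0.90 without 1 sample. Of 592 alternative values for 35 named results, 0 reversed, 173 fell short of the threshold and 419 did not.

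Deviations from the group means of samples sharing a replicate number had correlations from -0.015 to 0.119. Those of samples with different numbers ran from -0.119 to 0.039. Deviations within groups this small are tied to each other, so these values cannot decide whether the numbers paired the samples. The main fit held no replicate block, and the replicate block is given only here. It also gave 233 higher and 6 lower after RNAi and 68 and 39 in control cells for nucleus against cytoplasm, and 0 and 0 for RNAi in the nucleus. No comparison that uses the control cytoplasm could be computed without its 1 library.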
